A study of Homo sapiens with 6 samples.

Results

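The genes described here are 10 that encode glycoproteins of the extracellular matrix or matricellular proteins: FN1, FBN1, FBLN1, SPARC, TNC, THBS1, THBS2, VCAN, POSTN and TGFBI. They were picked by gene symbol, with earlier results of these data known. All 10 were found among the 23228 gene symbols of the count table. The data are RNA-seq read counts of U2OS, an established human osteosarcoma line. One group of 3 libraries came from cells given a scrambled siRNA and the other group of 3 from cells given siRNAs against ALKBH5, the enzyme that removes methyl groups from N6-methyladenosine in RNA. Both groups were transfected with the same lipid reagent and harvested after 48 hours. No other siRNA, rescue, line or untreated culture is part of the comparison, so what follows from the loss of ALKBH5 and what follows from either siRNA otherwise cannot be told apart. Nothing in the labels tells if the 3 replicates of a group were grown apart, and p-values therefore measure only how far these libraries spread, possibly for technical reasons.

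The matrix is the mesh of proteins and sugars that cells secrete around themselves. Fibronectin (FN1) and fibrillin (FBN1) assemble into fibres that carry other proteins, and fibulin (FBLN1) binds to such fibres. Matricellular proteins such as tenascin (TNC), the thrombospondins (THBS1, THBS2), osteonectin (SPARC) and periostin (POSTN) sit in the matrix and act on cell adhesion and signalling more than on its structure. Versican (VCAN) is a large proteoglycan that binds hyaluronan. Bone-forming cells are known for high SPARC, and osteosarcoma is a tumour that makes bone matrix.

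Reads in genes numbered 18817181 to 23410007 per library. ALKBH5 itself stood at 138, 148 and 143 CPM (counts-per-million, scaled for library size and composition) in the scrambled libraries and at 19.4, 16.2 and 15.7 CPM after its siRNA (8.35-fold lower, edgeR adjusted p = 1.6e-09). Of all tested genes 61.6% were called changed (edgeR adjusted p under 0.05), the share beside which the following counts stand. Of the markers of a mesenchymal line, VIM (1936 CPM in the scrambled mean), COL1A1 (1526 CPM) and THY1 (179 CPM) were abundant. COL1A2 (4.44 CPM), ALPL (3.97 CPM) and NT5E (0.295 CPM) were low in that mean. The whole list of 15 summed to 3829 to 3953 CPM in the scrambled libraries against 4155 to 4506 CPM after ALKBH5 siRNA. This sum came mostly from VIM and COL1A1, and 5 of the 11 tested genes of the list were called higher and 2 lower. The osteoblast markers SP7 and BGLAP had 3 reads each in all 6 libraries together and the mesenchymal factor TWIST1 had 2. Among markers of other cell types, the epithelial list of 10 summed to 547 to 642 CPM in the scrambled and 626 to 650 CPM in the ALKBH5 siRNA libraries, with 3 of its 8 tested genes called higher and 3 lower. KRT8 (mean 356 CPM with scrambled, 261 CPM with ALKBH5 siRNA) and KRT18 (180 and 294 CPM) made up most of it, in opposite directions. EPCAM (5.24 CPM) and CDH1 (0.498 CPM) were low in the scrambled mean. The endothelial list of 6 summed to 6.96 to 9.70 and 2.36 to 3.58 CPM, with 0 of its 4 tested genes called higher (edgeR, 0 at an unadjusted p under 0.05, 0 by DESeq2 and 0 by limma-voom) and 2 lower, and PECAM1 had 7 reads in all. The leukocyte list of 8 summed to 26.6 to 28.8 and 98.0 to 201 CPM, mostly through LCP1, with 2 of its 4 tested genes called higher and 2 lower. Among the leukocyte genes, CD3E of T cells was at 0 in all libraries and PTPRC averaged 1.31 CPM with scrambled and 0.619 CPM with ALKBH5 siRNA. LAPTM5 averaged 1.06 CPM with scrambled and 3.67 CPM with ALKBH5 siRNA. The share of uniquely placed reads that lay outside genes was 15.0% to 15.5% under the scrambled siRNA, against 17.3% to 18.6% under ALKBH5 siRNA. The part of the marker genes and of this share in the results on matrix genes was not tested.

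Promoters are shown first for 2 pairs of related genes, because the members of 1 pair differ widely in level and both members of the other were lower after ALKBH5 siRNA. THBS1 and THBS2 encode close relatives of the thrombospondin family, and TGFBI and POSTN encode relatives that share the fasciclin domain. The sequences are the 250 bases before each RefSeq start on GRCh38.p14, read 5′ to 3′ on the strand of the gene. THBS1 lies at chr15:39580829-39581078 (plus strand), THBS2 at chr6:169253847-169254096 (minus), TGFBI at chr5:136028738-136028987 (plus) and POSTN at chr13:37598769-37599018 (minus). Capitals mark matches on either strand to any of 7 short motifs: TATAAA of the TATA box, GGGCGG of the GC box, TGAGTCA of AP-1 sites, GGAATG of TEAD sites, the E-boxes CAGCTG and also CACGTG, and the box CCAAT.
THBS1: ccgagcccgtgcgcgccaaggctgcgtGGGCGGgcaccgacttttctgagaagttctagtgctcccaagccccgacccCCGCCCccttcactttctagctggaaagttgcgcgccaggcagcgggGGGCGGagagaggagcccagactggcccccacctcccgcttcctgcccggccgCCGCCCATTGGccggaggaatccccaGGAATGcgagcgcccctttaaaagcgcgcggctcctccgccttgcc
THBS2: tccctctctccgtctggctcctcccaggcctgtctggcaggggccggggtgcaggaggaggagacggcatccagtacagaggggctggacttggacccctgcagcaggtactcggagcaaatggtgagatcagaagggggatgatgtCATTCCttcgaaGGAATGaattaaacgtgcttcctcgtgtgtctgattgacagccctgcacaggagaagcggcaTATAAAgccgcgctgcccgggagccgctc
TGFBI: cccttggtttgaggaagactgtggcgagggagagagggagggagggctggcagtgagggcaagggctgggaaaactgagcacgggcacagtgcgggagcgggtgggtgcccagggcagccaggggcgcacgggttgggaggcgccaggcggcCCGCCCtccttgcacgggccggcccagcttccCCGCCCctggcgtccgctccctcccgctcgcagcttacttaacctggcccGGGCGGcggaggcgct
POSTN: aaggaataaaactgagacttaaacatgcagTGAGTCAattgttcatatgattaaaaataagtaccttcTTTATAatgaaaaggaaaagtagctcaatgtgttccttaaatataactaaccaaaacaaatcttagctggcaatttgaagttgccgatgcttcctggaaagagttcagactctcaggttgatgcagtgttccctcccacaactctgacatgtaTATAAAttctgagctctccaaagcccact

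All 10 genes had an entry in that promoter table. TATAAA stood in the windows of THBS2 and POSTN, in both with its first base 29 bases before the start, and in 10.7% of all 35116 promoters of the table, or 6.05% of the 14651 promoters of tested genes. POSTN held a further copy on the other strand, 182 bases before the start. GGGCGG stood in 6 of the 10 windows (FN1, FBLN1, TNC, THBS1, VCAN and TGFBI) in 42.6% of all promoters and in 61.9% of those of tested genes, so that its share among the 10 was close to that of tested genes. FN1 held 6 copies, some of them overlapping. GGAATG stood in 4 windows (FBN1, SPARC, THBS1 and THBS2) in 11.9% of all and in 10.1% of those of tested genes. TGAGTCA was found in POSTN, in 4.20% of all promoters and in 3.21% of those of tested genes. CAGCTG was found in FBN1 (14.0% and 13.2%), CCAAT in FN1 and THBS1 (32.0% and 32.3%), and CACGTG in 0 windows (6.34% and 7.98%). The POSTN window was the poorest in G and C (36.4%), against 54.8% to 77.6% in the other 9 and a median of 58% over all promoters. A match is a description of letters, and none of these sites was measured here.

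Of the 10 genes, 9 had enough reads to be tested, and 6 of these rose and 3 fell after ALKBH5 siRNA. FN1, FBN1, FBLN1, TNC, THBS1 and VCAN rose, and SPARC, TGFBI and POSTN fell. A change was called where the adjusted p of edgeR's quasi-likelihood test over all 14504 tested genes was under 0.05. This call covered 61.6% of all tested genes, with 30.8% called higher and 30.8% called lower. The 2 groups of 3 libraries did not overlap in CPM for any of the 9 genes, which also held for 67.4% of all tested genes. When tested against a change of 1.5-fold, 5 of the 9 were higher and 2 lower, where 24.8% of all tested genes passed in either direction. The median log2 fold change of the 9 was 0.92 beside 0.01 over all tested genes. Because the genes were chosen with earlier results of these data known, these counts and this median are descriptive. POSTN passed the filter on low counts through its reads in the scrambled group alone, so it could enter the test only by differing, and counts over the 9 include it for that reason. In bulk RNA, fewer cells that express a gene and less RNA of it per cell cannot be told apart.

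**Figure D1:**
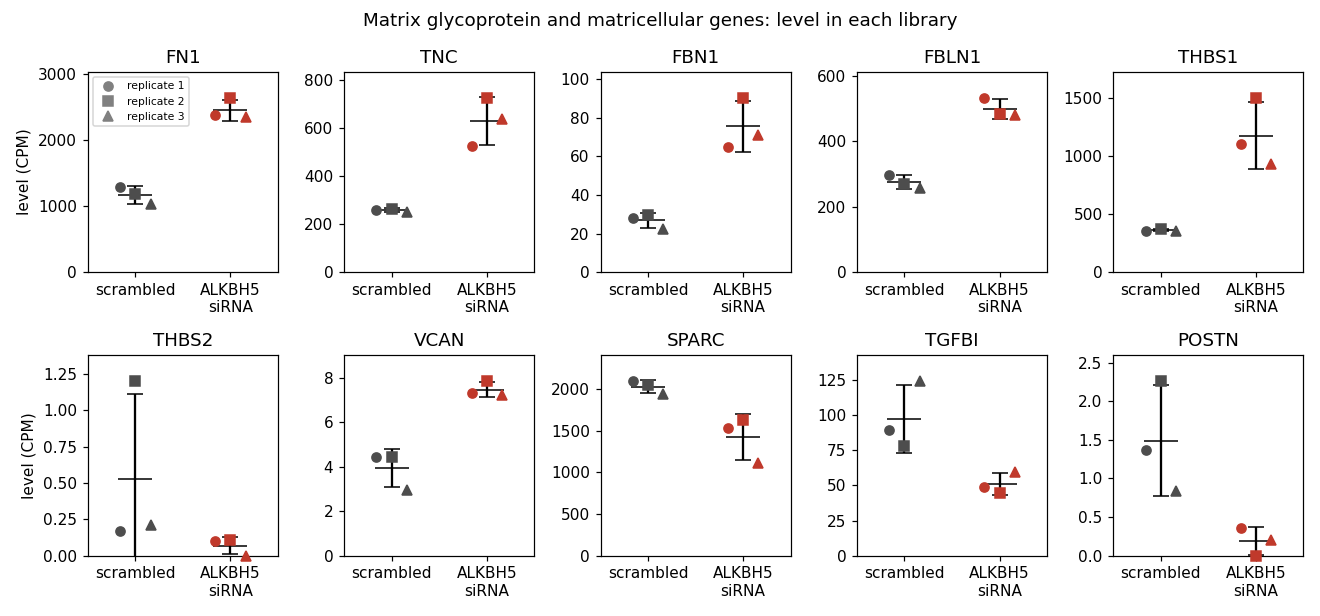
Level of each of the 10 genes in CPM (vertical axis starting at 0) in the 3 scrambled (grey) and the 3 ALKBH5 siRNA libraries (red), with symbols for replicates and the group mean ± SD in black; the SD bar of THBS2 in the scrambled group reaches below 0 and is cut there. The groups are apart in every panel, with FN1, TNC, FBN1, FBLN1, THBS1 and VCAN higher after ALKBH5 siRNA and the other 4 lower. Of these 4, THBS2 had too few reads to be tested.

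FN1, the fibronectin that cells bind through integrins and build into fibrils, held 1292, 1189 and 1029 CPM in the scrambled libraries and 2380, 2633 and 2340 CPM in the ALKBH5 siRNA libraries. Each of the latter was well above each of the former. The means were 1170 ± 133 and 2451 ± 159 CPM (SD, n = 3), a 2.09-fold rise (log2 fold change 1.07, SE 0.09, edgeR adjusted p = 1.1e-06). FN1 ranked 25th, 27th and 40th by reads among all genes in the scrambled libraries and 6th, 5th and 7th after ALKBH5 siRNA, ranks that do not correct for transcript length.

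FBN1, the main fibrillin of microfibrils, held 28.3, 29.6 and 22.6 CPM in the scrambled libraries and 65.0, 90.1 and 71.2 CPM after ALKBH5 siRNA. The third scrambled library was the lowest and the second ALKBH5 siRNA library the highest, and the groups stayed apart. The rise was 2.81-fold (log2 fold change 1.49, SE 0.14, edgeR adjusted p = 3.4e-06).

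FBLN1 encodes a fibulin that binds fibronectin, and its fold was the smallest of these 3 genes of the fibres, a difference that was not tested. Its level was 298, 268 and 258 CPM in the scrambled libraries and 532, 483 and 479 CPM after ALKBH5 siRNA. Libraries of a group lay close together (SD 21.2 and 29.4 CPM, n = 3). The rise was 1.81-fold (log2 fold change 0.86, SE 0.08, edgeR adjusted p = 2.5e-06).

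TNC, the tenascin of healing wounds and tumour stroma, differed little among the scrambled libraries at 261, 264 and 249 CPM. After ALKBH5 siRNA it held 523, 724 and 637 CPM, so that the spread between replicates was wider at the higher level (SD 101 against 7.85 CPM, n = 3). The lowest of these was still above every control. The rise was 2.44-fold (log2 fold change 1.29, SE 0.11, edgeR adjusted p = 1.1e-06).

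THBS1, a thrombospondin that can activate latent TGF-beta, had the largest fold among the 6 genes that rose. Scrambled libraries held 357, 372 and 357 CPM and ALKBH5 siRNA libraries 1101, 1502 and 932 CPM. The second ALKBH5 siRNA library was the highest by far, and the lowest was above all controls. The rise was 3.25-fold (log2 fold change 1.70, SE 0.15, edgeR adjusted p = 1.0e-05), larger than the fold change of 96.5% of tested genes.

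VCAN, versican, was scarce, with 107, 92 and 56 reads in the scrambled libraries and 143, 149 and 141 reads after ALKBH5 siRNA. In CPM these were 4.45, 4.42 and 2.93 against 7.32, 7.84 and 7.22, so the groups did not overlap. The rise was 1.89-fold (log2 fold change 0.92, SE 0.19, edgeR adjusted p = 0.0012). Against a change of 1.5-fold it did not pass (edgeR glmTreat adjusted p = 0.059).

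SPARC, osteonectin, was the most abundant of the 10 in the scrambled libraries and was lower after ALKBH5 siRNA. It held 2096, 2049 and 1944 CPM in the scrambled libraries and 1531, 1636 and 1115 CPM after ALKBH5 siRNA. The third ALKBH5 siRNA library lay below the other two, and all 3 were under the controls. The level was 1.42-fold lower (log2 fold change −0.51, SE 0.12, edgeR adjusted p = 0.0046). It did not pass against a change of 1.5-fold (edgeR glmTreat adjusted p = 0.97), with a 95% interval of −0.78 to −0.23 on the log2 scale.

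TGFBI, an adhesion protein named for its induction by TGF-beta, fell from 89.4, 78.0 and 124 CPM to 48.7, 44.5 and 59.5 CPM. The third library was the highest in each group, and the groups did not overlap. The level was 1.91-fold lower (log2 fold change −0.93, SE 0.17, edgeR adjusted p = 0.0012).

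POSTN, periostin, a protein of bone and tooth-ligament matrix, was close to the limit of detection. It had 33, 47 and 16 reads in the scrambled libraries and 7, 0 and 4 reads after ALKBH5 siRNA. The library with 0 reads allows a level of up to 0.158 CPM (3 reads, counting error only). The fitted fold was 7.69 lower (log2 fold change −2.94, SE 0.63, edgeR adjusted p = 0.0020), with a wide 95% interval of −4.34 to −1.55. The fitted log2 fold change was −3.77 without the first ALKBH5 siRNA replicate, which held 7 of the 11 reads. It was −2.38 without the second, which held 0 reads.

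THBS2, the second thrombospondin described here, was hardly expressed. It had 4, 25 and 4 reads in the scrambled libraries and 2, 2 and 0 reads after ALKBH5 siRNA, and did not pass the filter on low counts. Most of its 33 reads in the scrambled group came from 1 library, and the other two held 8 together. No fold is given. With no filter on low counts its edgeR adjusted p was 0.033.

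**Figure D2:**
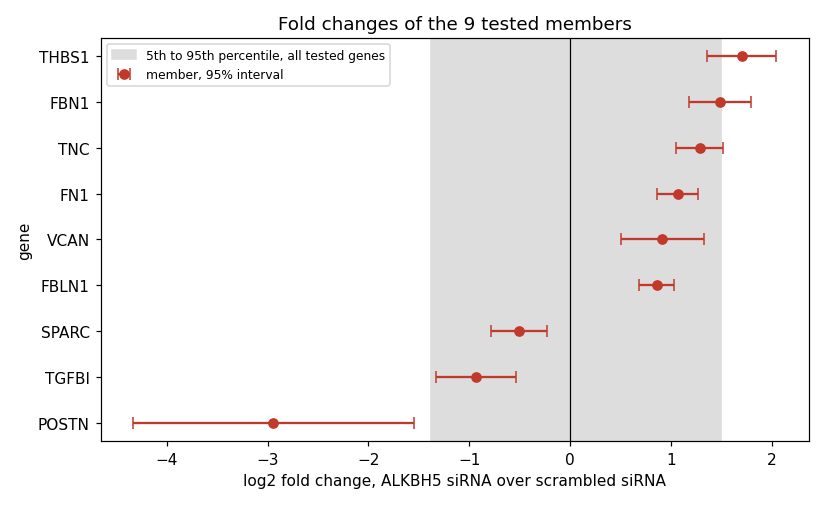
Log2 fold change (horizontal axis, ALKBH5 siRNA over scrambled siRNA, 3 libraries each) of the 9 tested genes with 95% intervals; the grey band runs from the 5th (−1.38) to the 95th percentile of all tested genes. THBS1 lies above the band and POSTN below it, and the other 7 genes lie within it.

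The 10 genes differed in level by several orders of magnitude. Levels between genes were compared in CPM per kilobase of the longest protein-coding transcript in GENCODE 29. In the scrambled libraries SPARC led with 548 ± 21.1 CPM per kilobase (SD, n = 3), above 99.7% of the 12349 tested genes with a length. FN1 (131 ± 14.9), FBLN1 (94.9 ± 7.32) and THBS1 (46.6 ± 1.12) followed, each with a range over libraries apart from the next. TGFBI (34.7 ± 8.61) and TNC (33.7 ± 1.03) overlapped. FBN1 stood at 2.28 ± 0.32, and POSTN (0.442 ± 0.21) and VCAN (0.312 ± 0.069) overlapped at the lower end, above THBS2 (0.0904 ± 0.10).

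After ALKBH5 siRNA SPARC was still first at 386 ± 74.4 CPM per kilobase, with FN1 second at 275 ± 17.8. The gap between these 2 genes narrowed, though their ranges did not overlap. FBLN1 (172 ± 10.1) and THBS1 (152 ± 37.6) now overlapped. TNC (82.2 ± 13.2) had moved above TGFBI (18.2 ± 2.75), and VCAN (0.591 ± 0.026) above POSTN (0.0556 ± 0.053). The order rests on the transcript length used and holds for the longest transcripts.

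**Figure D3:**
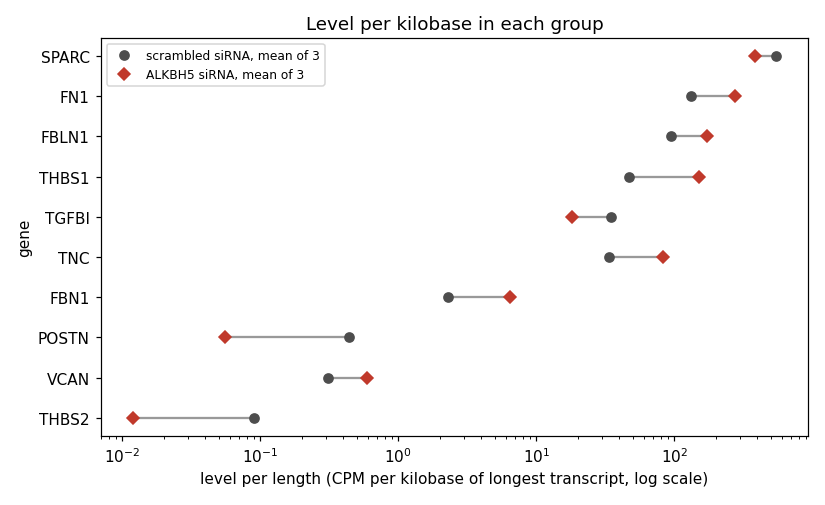
Mean level of each gene in CPM per kilobase of its longest transcript (log axis) in the scrambled (grey circles) and ALKBH5 siRNA group (red diamonds), 3 libraries each, ordered by the scrambled mean. SPARC is highest in both groups (548 and 386), TNC passes TGFBI, and VCAN passes POSTN.

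Ratios within a library do not depend on how libraries are scaled. FN1 had 0.616, 0.580 and 0.529 reads per read of SPARC in the scrambled libraries and 1.55, 1.61 and 2.10 after ALKBH5 siRNA. SPARC therefore had more reads than FN1 in every control and fewer in every ALKBH5 siRNA library. THBS1 went from 0.170, 0.182 and 0.184 reads per read of SPARC to 0.719, 0.918 and 0.836. TNC, by contrast, kept overlapping ratios to FN1, with 0.202, 0.222 and 0.242 in the controls and 0.220, 0.275 and 0.272 after ALKBH5 siRNA.

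As a whole the 10 genes took 0.454%, 0.436% and 0.405% of all reads in genes in the scrambled libraries and 0.612%, 0.685% and 0.553% after ALKBH5 siRNA. SPARC made up 48.1% ± 0.71 of the reads of the 10 genes in the controls and 22.5% ± 2.52 after ALKBH5 siRNA (SD, n = 3). FN1 went from 29.2%, 27.9% and 25.8% to 38.5%, 37.0% and 41.5% and THBS1 from 8.59% ± 0.47 to 18.5% ± 2.36. The sum is ruled by its 3 largest members and says little of VCAN, POSTN or THBS2. Shares among the 10 depend on one another. Of all reads in genes SPARC took 0.208% ± 0.0091 in the controls and 0.139% ± 0.026 after ALKBH5 siRNA, a smaller fall than within the 10.

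**Figure D4:**
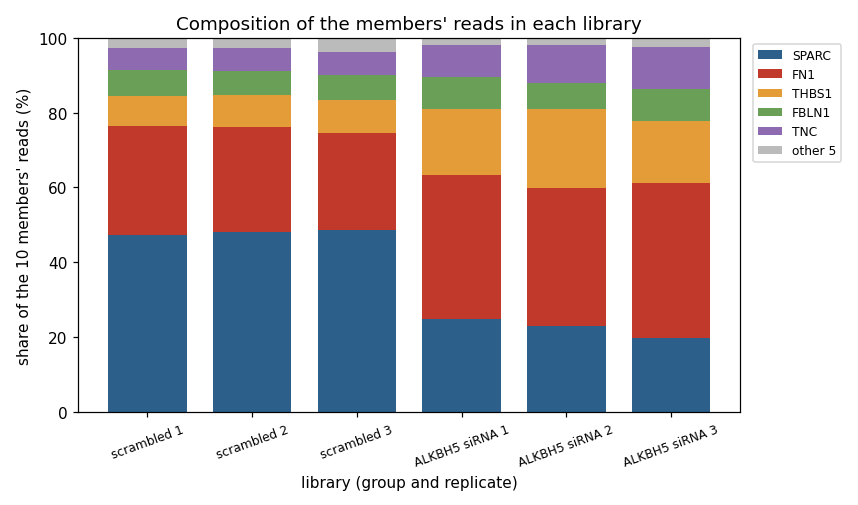
Share of the reads of the 10 genes (vertical axis, percent) that fell on each gene in each of the 6 libraries; the grey part holds the other 5 genes. SPARC takes 47.3% to 48.7% in scrambled and 19.8% to 24.7% in ALKBH5 siRNA libraries, where FN1 and THBS1 take more.

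Several of these genes were lowest or highest of their group in the same library. The share of all tested genes with this pattern was not taken. Among the 9 tested genes, 7 were lowest of their group in the third scrambled replicate, all but TGFBI and THBS1. In the ALKBH5 siRNA group 6 were highest in the second replicate (FN1, FBN1, SPARC, TNC, THBS1 and VCAN), and 5 were lowest in the third. No group difference of a tested gene turned on 1 such library, since each call held when any single library was left out.

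Annotated genes of the other strand overlap some of these loci, and the sources used here give a kit that keeps the strand but no strand setting of the read counting. FSIP1 overlaps THBS1 and had 43, 49 and 38 reads in the scrambled and 33, 22 and 10 after ALKBH5 siRNA. DEC1 overlaps TNC and had 1 to 3 reads per library. THBS1 and TNC had at least 4756 reads in every library. Antisense RNAs annotated over SPARC, VCAN, THBS2 and THBS1 were not counted as genes of their own, so their reads cannot be told apart from those of these genes if strand was ignored.

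The other glycoproteins of fibres and basement membranes formed a list of 45, of which 35 were tested, 14 rose and 7 fell (60.0% called, against 61.6% of all tested genes), with a median log2 fold change of 0.28. EFEMP1, a fibulin of the same family as FBLN1, rose from 42.2 ± 2.26 to 205 ± 39.6 CPM. FBN2, the second fibrillin, rose from 66.8 ± 4.24 to 176 ± 31.7 CPM and thus in the direction of FBN1. LTBP2, which is bound to fibrillin fibres, rose from 227 ± 20.3 to 441 ± 33.7 CPM, whereas its relative LTBP1, which stores latent TGF-beta on fibrillin and fibronectin, fell by 1.33 on the log2 scale. MATN2 and FREM2 fell by 1.03 and 1.44 on that scale. Among other relatives of FBLN1, EFEMP2 fell by 0.65 and FBLN2 rose by 1.28 from a level of 0.455 ± 0.29 CPM, with groups that overlapped. FBLN5 and FBLN7 were not called, with 95% intervals of −0.06 to 0.56 and −0.27 to 1.36 on the log2 scale. TNXB, a tenascin like TNC, rose from 4.49 ± 0.42 to 8.92 ± 0.30 CPM. The relatives of a gene thus did not all move one way. ECM2 (0.152 ± 0.05 against 0.931 ± 0.27 CPM), FBLN2, MATN1 and MMRN2 passed the filter on low counts by their ALKBH5 siRNA libraries, and all were called higher. In other lists HAPLN2, SPOCK3 and the marker CDH1 likewise passed it by their ALKBH5 siRNA libraries and were called higher. DCN and the markers KDR and CLDN7, among others, passed it by their scrambled libraries. Such genes near the filter entered the counts called because they were high in 1 group.

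The list of 18 other matricellular genes held 13 tested ones, of which 6 rose and 2 fell (61.5% called), with a median of 0.16. CYR61, which binds integrins, rose by 1.91 on the log2 scale, the SPARC-related gene SMOC1 by 2.04 and the SPARC-related gene FSTL1 by 0.66, opposite to SPARC itself. THBS4 fell from 13.5 ± 2.86 to 2.34 ± 1.28 CPM, and CTGF fell by 0.34 on the log2 scale. THBS3 was not called (95% interval −0.43 to 0.09), and COMP had 3 reads in all libraries together. Of the 3 thrombospondin genes tested, THBS1 was called higher, THBS4 lower and THBS3 neither.

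Receptors that bind these proteins, a list of 14, were higher in 8 of 11 tested cases (72.7% called, against 61.6% of all tested genes, of which 30.8% were called higher) and lower in 0 (edgeR, 0 at an unadjusted p under 0.05, 0 by DESeq2 and 0 by limma-voom), with a median log2 fold change of 0.77. Of the integrin chains, 3 with the lowest adjusted p were higher: ITGA5 from 322 ± 7.61 to 737 ± 35.9 CPM, ITGAV by 2.41 on the log2 scale, and ITGB3 from 11.7 ± 3.09 to 102 ± 17.5 CPM. CD47, which binds THBS1, rose from 30.9 ± 3.23 to 52.6 ± 4.02 CPM. With the replicate block 1 of the 11, ITGA8, was called lower (log2 fold change −1.04, edgeR adjusted p = 0.022, against −1.06 and 0.37 without it).

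Proteoglycans and genes of hyaluronan, a list of 35, went both ways, with 13 higher and 10 lower of 28 tested (82.1% called) and a median of 0.39. CD44, the hyaluronan receptor, rose from 99.1 ± 20.9 to 277 ± 43.1 CPM. HAPLN1, the link protein that fixes versican to hyaluronan, was not called (281, 308 and 262 against 265, 278 and 148 CPM, 95% interval −0.81 to 0.21 on the log2 scale). The cell-surface proteoglycans SDC3 and GPC6 rose by 1.33 and 0.76, and GPC2, GPC4 and CSPG4 fell by 1.79, 0.79 and 0.80. Of 6 ADAMTS proteases listed for acting on versican or thrombospondin, 5 were tested, 0 were called higher (edgeR, 0 at an unadjusted p under 0.05, 0 by DESeq2 and 0 by limma-voom) and 3 lower, with a median of −1.77. ADAMTS1 fell from 2.20 ± 0.39 to 0.619 ± 0.13 CPM and ADAMTS9 from 3.98 ± 0.38 to 1.17 ± 0.53 CPM, both low levels, and the third was ADAMTS5 (0.256, 0.316 and 0.154 CPM after ALKBH5 siRNA). ADAMTS5 passed the filter on low counts through the scrambled libraries alone, so it entered the count and the median of the list only by differing. Without the third ALKBH5 siRNA replicate 1 of the 5, ADAMTS15, was called higher (log2 fold change 0.51, edgeR adjusted p = 0.019, against 0.34 and 0.13 with it). ADAMTS5, ADAMTS15, ITGA8, ECM2, MATN1, MMRN2, HAPLN2, SPOCK3 and DCN are named after their values were seen.

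Genes that respond to TGF-beta formed a list of 23 that does not hold TGFBI. It shares LTBP2, LTBP3 and CTGF with the related lists above, and COL1A1 and COL1A2 with the mesenchymal markers. All 23 were tested, with 9 higher and 9 lower (78.3% called) and a median of −0.30. TAGLN, BHLHE40 and JUNB rose by 3.91, 1.31 and 1.65 on the log2 scale, and TGIF1, BAMBI and NEDD9 fell by 1.71, 1.76 and 1.12. THBS1 and TGFBI, both known to respond to TGF-beta, likewise moved in opposite directions.

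**Figure D5:**
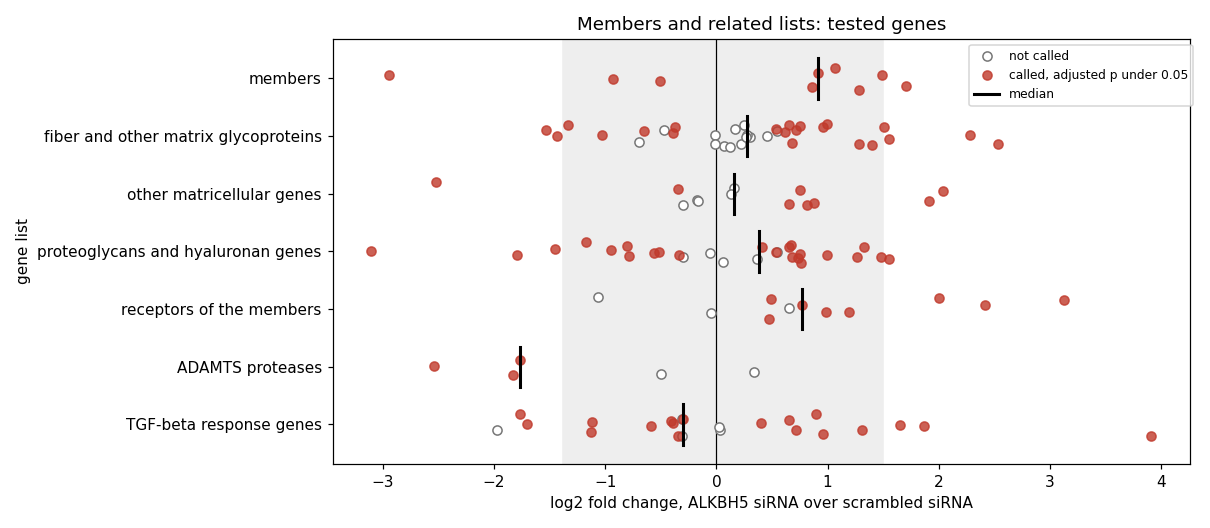
Log2 fold change (horizontal axis, ALKBH5 siRNA over scrambled siRNA) of each tested gene in the 10 genes described here (top) and in 6 related lists; filled points passed the test, open points did not, black bars are medians and the grey band is the 5th to 95th percentile of all tested genes. The median is highest in the top line (0.92) and lowest in the ADAMTS proteases (−1.77).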

How the data were processed

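RNA of 6 libraries was sequenced with a stranded mRNA kit, per the labels' protocols. The authors deposited unnormalised read counts for each gene symbol, made with CASAVA 1.8.2, TopHat2, SAMtools and HTSeq on hg19, per the submitters' processing notes; settings, annotation and strand: not given in the sources used here. The series table equalled the single-sample files in all 23233 lines. HTSeq's summary entries were left out of sizes and tests. No libraries were merged, since the chi-square statistic between those of a group was 6.20 to 17.0 times its degrees of freedom.

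The test was that of edgeR 4.0.16 under R 4.3.3 (filterByExpr, TMM, robust glmQLFit and glmQLFTest, 2-sided, Benjamini-Hochberg over 14504 genes, threshold 0.05). The standard error is the log2 fold change over the root of F. CPM use TMM sizes. It was tested on simulated data. Transcript lengths came from GENCODE 29 (85.1% of tested genes matched), promoters from RefSeq on GRCh38.p14. Alternatives included DESeq2 1.42.0 and limma 3.58.1. The members and lists were chosen with earlier results of these data known. The text names the 10 members, ALKBH5, the up to 3 called genes of lowest adjusted p per direction and related list (average log2 CPM 0 or more), relatives of the members, fixed partners and marker genes. Levels in libraries at 0 are limits for counting error only, since reads carry no molecular identifiers. Protein sequences were not used here.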

Additional observations from a re-analysis of the deposited data

How the results depend on the processing

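The 9 tested genes kept their direction in each of the 15 alternatives that could be run for them, which were RLE scaling, library totals, 2 other filters, DESeq2, limma-voom, a fit without robust moderation, a test against 1.5-fold, the replicate block and each of the 6 libraries left out. POSTN could be fitted in 14 of them, since it did not pass a filter of 1 CPM in 3 libraries. The fit without robust moderation and the test against 1.5-fold returned the log2 fold changes of the main fit, so no direction could change there. Calls were lost in the test against 1.5-fold alone, by SPARC (log2 fold change −0.51) and VCAN (0.92). That test, which asks for a larger change, also moved the related lists to 7 higher and 4 lower (fibre and other glycoproteins), 2 and 1 (other matricellular), 5 and 3 (proteoglycans), 5 higher (receptors) and 4 lower (TGF-beta response), and all tested genes to 1891 higher and 1710 lower. ADAMTS genes called higher ranged from 0 to 1 when single libraries were left out. With the shortest annotated transcripts, 69 to 4109 bases long, 3 of 10 genes kept their place in the order by level in the scrambled and 5 in the ALKBH5 siRNA group. With library totals the median of all tested genes moved from 0.01 to −0.06, and 4019 genes were higher and 4992 lower.

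The labels link same-numbered replicates by number only, and do not say if these shared a culture or day. Deviations of same-numbered replicates correlated at 0.33, 0.06 and 0.35, against −0.37 to 0.08 between replicates of different number. Deviations were taken from the group mean, so those of a group cancel out for each gene, and these correlations are not independent. The second scrambled replicate correlated better with the first ALKBH5 siRNA replicate (0.08) than with the second. A shared origin of replicates was not tested. The replicate block left 6 members higher and 3 lower, called 1 receptor lower where the fit without it called 0 (the cause was not tested), and called 4865 genes higher and 4895 lower in all. Depth limits THBS2 and POSTN, whose libraries hold 0 to 47 reads.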
